A study of Mus musculus with 9 samples.

Results

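Wnt signalling passes a message from a secreted ligand to the genes of the receiving cell. Ligands bind Frizzled receptors, with LRP5 or LRP6 as co-receptor in the canonical branch, and the signal then keeps β-catenin from being degraded, so that it enters the nucleus and joins the DNA-binding factors of the TCF/LEF family. In the brain the canonical branch is known for building and keeping the blood-brain barrier in endothelial cells, for timing the maturation of oligodendrocytes, and for the identity of thalamic neurons. This account follows 10 genes of the pathway, chosen by symbol out of 31053 genes in the count tables: the ligand Wnt5a, the receptors Fzd3 and Fzd6, the co-receptor Lrp6, β-catenin itself (Ctnnb1), the effectors Lef1, Tcf7l1 and Tcf7l2, and the feedback genes Axin2 and Apcdd1. All 10 symbols were found. They were described in neurons, cells of the oligodendrocyte lineage and endothelial cells.

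The data were single-nucleus RNA sequencing counts from the cortex and hippocampus of 9 wild-type male C57BL/6 mice, with 1 library per mouse. There were 3 groups of 3 mice: young mice given AAV-EGFP (young AAV-EGFP), old mice given the same virus (aged AAV-EGFP) and old mice given AAV-B3GNT3 (aged AAV-B3GNT3), so that no group was without virus, and young mice given AAV-B3GNT3 were not part of the series. All mice received, 8 weeks before tissue was taken, an adeno-associated virus with the AAV-PHP.V1 capsid and a shortened Cldn5 promoter, which favours endothelial cells; the cargo was EGFP, a fluorescent control protein, or B3GNT3, a glycosyltransferase of the mucin-type O-glycan pathway. Ageing was read as aged AAV-EGFP minus young AAV-EGFP, and treatment as aged AAV-B3GNT3 minus aged AAV-EGFP; both comparisons share the aged AAV-EGFP libraries.

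Libraries held between 47332047 and 79964605 UMIs (unique molecular identifiers, each standing for 1 captured RNA molecule), and 70327 of 77823 barcodes were kept as nuclei. Between 7 and 37 barcodes were shared by any of the 36 pairs of libraries. The library of aged AAV-EGFP replicate 1 stood apart in one respect: without it, more genes were called in each of the 5 classes tested, and results that rest on it are given with and without it. It was not the only such library. In excitatory neurons treatment calls went from 429 to 1147 without it and to 1462 without aged AAV-B3GNT3 replicate 3. In inhibitory neurons they went from 10 to 142 and 421 in the same order. The classes described were excitatory neurons (20494 nuclei), inhibitory neurons (8286), oligodendrocytes (20432), oligodendrocyte precursors (2745) and endothelial cells (764, or 51 to 123 per mouse). The endothelial nuclei carried the defining genes Flt1 (4455 CPM), Slco1a4 (1586 CPM) and Cldn5 (533 CPM). B3gnt3 had 0 UMIs in endothelial nuclei of all 3 aged AAV-EGFP mice, 0, 4 and 4 in the aged AAV-B3GNT3 mice and 9, 3 and 1 in the young mice; whether the viral transcript is counted under this gene is not given in the sources used here.

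Levels below are CPM, the UMIs of a gene per 1000000 UMIs of that class in that mouse. Differences are log2 fold changes from edgeR's quasi-likelihood fit of the summed counts, with their standard errors (SE), and adjusted p values are Benjamini-Hochberg values over all genes tested in the class. Values in excitatory neurons chose several of these genes, so they are given there as a description with no test: the rise of Wnt5a with treatment, the rise of Fzd6 with ageing and the falls of Lef1 and Tcf7l2 with ageing were known beforehand, and so was a treatment difference of Tcf7l2 in oligodendrocytes. Summed counts of a class do not tell a change in which cells it holds from a change in RNA per cell.

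The genes differed in where they were high. Lef1 was highest in endothelial cells, at 1218 CPM over all mice, with at least 1 UMI in 76.6% of endothelial nuclei. The next levels were 202 CPM in a cluster left unnamed that carries fibroblast and pericyte markers, 142 CPM in a mixed class of neurons set apart by subcortical markers (described further on), 120 CPM in pericytes and 40.3 CPM in astrocytes. The lowest endothelial value of any mouse, 631 CPM, lay above the highest of those other classes, 265 CPM, while the ranges of the unnamed cluster (115 to 265 CPM), the mixed neuron class (60.9 to 198 CPM) and the pericytes (94.1 to 194 CPM) overlapped one another. Lef1 was at 1.77 CPM in excitatory and 0.847 CPM in inhibitory neurons.

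Tcf7l2 followed another order. It was highest in newly forming oligodendrocytes, at 1822 CPM, although these were 80 nuclei in all, 4 to 18 per mouse, found by clustering the precursors on their own and by 6 of 7 markers such as Enpp6 and Bcas1. Astrocytes stood at 540 CPM, fibroblasts at 501 CPM, microglia at 232 CPM and oligodendrocyte precursors at 226 CPM, and mature oligodendrocytes at 97.7 CPM. In the 4 mice with at least 10 newly forming nuclei the level ranged from 505 to 3332 CPM, above the highest mature value of any mouse, 170 CPM. Excitatory and inhibitory neurons stood at 2.82 and 3.74 CPM.

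Fzd6, a Frizzled receptor best known for planar cell polarity, reached 332 CPM in pericytes and 221 CPM in endothelial cells against 2.55 CPM in excitatory neurons. Ctnnb1 was at 228 CPM in endothelial cells and between 37.9 and 99.3 CPM in every other class. Apcdd1, a membrane inhibitor of Wnt signalling, and Axin2, a scaffold of the destruction complex that Wnt signals induce, were at 102 and 41.5 CPM in endothelial cells and at 2.12 and 11.3 CPM in excitatory neurons. Lrp6 and Fzd3 varied least across classes, from 92.2 to 327 CPM and from 30.2 to 62.7 CPM. Wnt5a, a ligand best known for non-canonical signals, was at 134 CPM in the unnamed cluster with fibroblast markers and at 11.54 CPM or less in the named classes, and Tcf7l1, often a repressor among the TCF factors, was at 627 CPM in fibroblasts.

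**Figure D1:**
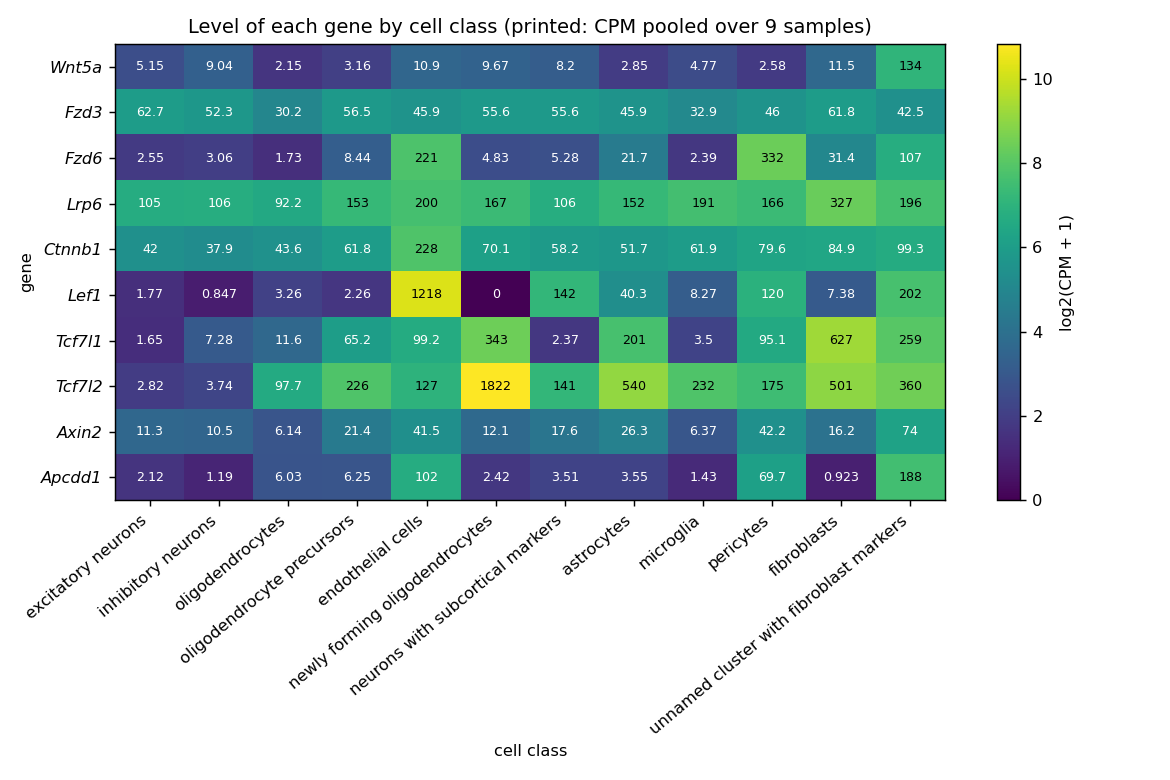
Level of each of the 10 genes (rows) in each class of nuclei (columns), as CPM pooled over 9 samples, printed in each cell and coloured as log2(CPM + 1). Lef1 stands at 1218 CPM in endothelial cells and 1.77 CPM in excitatory neurons, and Tcf7l2 at 1822 CPM in newly forming oligodendrocytes and 97.7 CPM in mature ones; CPM are not scaled by gene length, so rows are not comparable with each other.

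Over 29 clusters of all nuclei and 14617 genes, the genes whose pattern of log2 CPM was most like that of Lef1 were Ccdc141 (Pearson's r = 0.834), Flvcr2 (0.817), Adgre5 (0.816), Wwtr1 (0.816) and Fzd6 (0.813). For Tcf7l2 they were Hnrnpa2b1 (0.942), Cdc14a (0.922), Cnksr3 (0.908), Elf1 (0.903) and Hsd17b11 (0.903). These are descriptions across clusters that share libraries, and clusters are not replicates.

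Lef1 and Tcf7l2 were both high in 1 kind of neuron, and where their neuronal counts came from was examined next. Lef1 is at chr3:131110471-131224356 on the plus strand and Tcf7l2 at chr19:55741820-55933654 on the plus strand of GRCm38. Their promoters are shown because both genes were high in the same subcortical-like cluster. Each line gives the 250 bases before the first RefSeq start, Lef1 at chr3:131110047-131110296 and Tcf7l2 at chr19:55741560-55741809 (GRCm38.p6, plus strand), with capitals marking CTTTG, the core that TCF/LEF factors read, or its reverse complement CAAAG.
Lef1: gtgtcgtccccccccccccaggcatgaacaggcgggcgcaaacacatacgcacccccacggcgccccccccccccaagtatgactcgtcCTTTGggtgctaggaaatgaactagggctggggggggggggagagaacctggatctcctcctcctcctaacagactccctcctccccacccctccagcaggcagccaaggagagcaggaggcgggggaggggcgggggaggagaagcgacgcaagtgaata
Tcf7l2: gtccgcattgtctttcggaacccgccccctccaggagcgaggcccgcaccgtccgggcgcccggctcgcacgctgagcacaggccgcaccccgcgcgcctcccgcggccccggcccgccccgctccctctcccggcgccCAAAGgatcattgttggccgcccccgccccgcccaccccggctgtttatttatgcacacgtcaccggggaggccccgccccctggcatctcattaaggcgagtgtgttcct
Each window held 1 such core, 161 to 157 bases before the start in Lef1 and, on the minus strand, 111 to 107 bases before it in Tcf7l2. The core occurs in 48.6% of 32851 promoters of this length on either strand, so its presence sets neither gene apart. The longer form CTTTGAT, which contains the core, was found in neither window and in 3.21% of all promoters.

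Clustering of the neurons alone gave 35 clusters. Cluster 31 held 231 nuclei and carried 10 of 11 markers of subcortical glutamatergic neurons, led by Synpo2 and with Slc17a6, the glutamate transporter of thalamic neurons, at 185 CPM against 41.5 CPM for its cortical counterpart Slc17a7. Lef1 stood at 731 CPM in it, in 219 of 231 nuclei, and Tcf7l2 at 763 CPM, in 230 of 231. Lef1 and Tcf7l2 were themselves among its 10 leading genes and were not in the marker list. By mouse, in the 8 mice with at least 10 such nuclei, Lef1 ranged from 447 to 1202 CPM and Tcf7l2 from 334 to 998 CPM, so both were high in all 8. The young AAV-EGFP mice had 38, 34 and 33 of these nuclei. The aged AAV-EGFP mice had 13, 11 and 32, and the aged AAV-B3GNT3 mice had 0, 24 and 46. These counts are not scaled to the neurons kept per mouse, and their differences were not tested. Cluster 1, with 1234 nuclei, 5 of the 11 markers and Gad2, a GABAergic marker, at 215 CPM, held Lef1 at 86.5 CPM and Tcf7l2 at 71.8 CPM.

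A class that holds neurons of this kind was kept out of the excitatory and inhibitory classes. It took each neuron cluster of the main clustering with at least 4 of the 11 markers, a limit set after the clusters were seen, and it came out mixed. Clusters 31 and 1, which carried the markers, held 231 and 1234 nuclei. Of the others that lay mostly in the class, cluster 21 (835 nuclei, of which 496 from young AAV-EGFP replicate 1) and the direct-pathway striatal-like cluster 0 (700 nuclei) passed 1 of the 11 markers each. Cluster 25 (662 nuclei) passed 0, had a median of 612 UMIs and was led by mitochondrial genes. The number of nuclei in the class is therefore no measure of subcortical neurons. Its 3479 nuclei held 35.3% of all Lef1 UMIs and 9.92% of all Tcf7l2 UMIs. Excitatory neurons held 4.66% of the Lef1 UMIs and 2.09% of the Tcf7l2 UMIs, although they were the largest class.

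**Figure D2:**
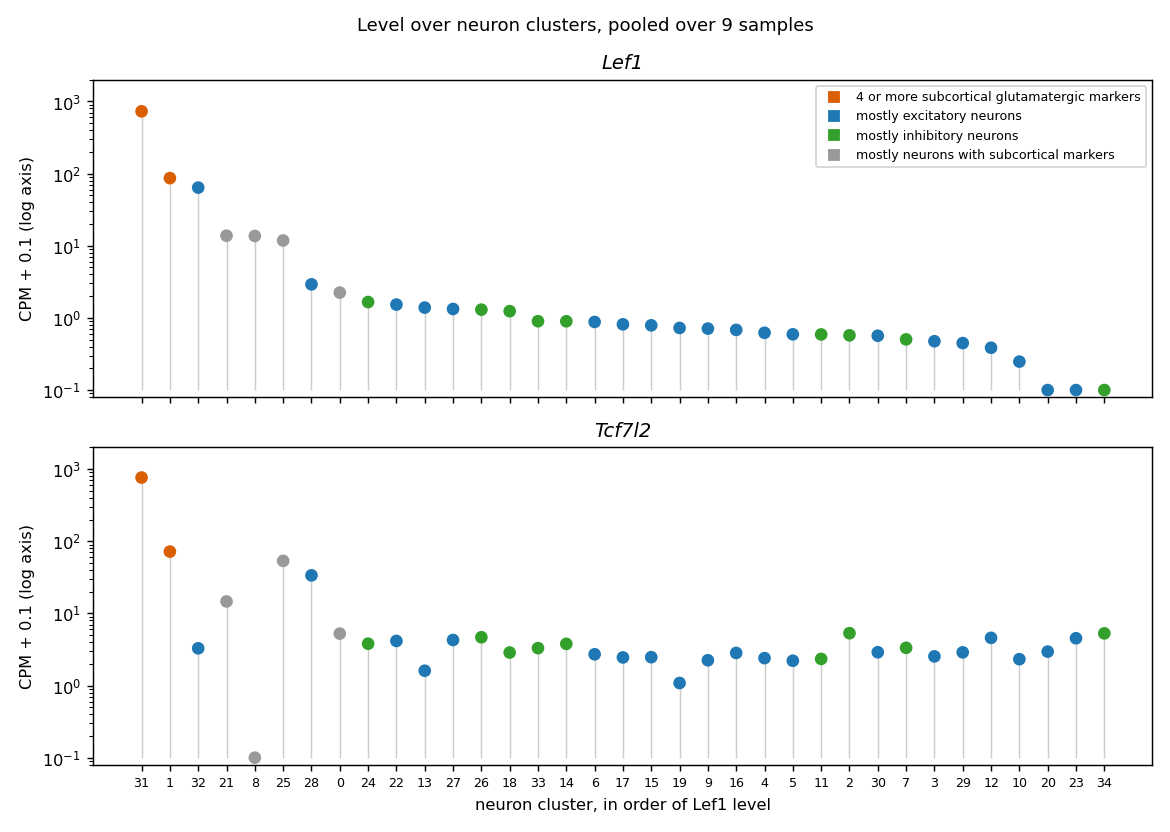
Lef1 (upper) and Tcf7l2 (lower) in the 35 clusters of neurons, as CPM + 0.1 pooled over 9 samples on a log axis, ordered by the level of Lef1. Colours give the class that most nuclei of a cluster belong to, or mark clusters with at least 4 subcortical markers. Cluster 31 is highest for both genes (731 and 763 CPM), while cluster 32 is high for Lef1 (63.9 CPM) and not for Tcf7l2 (3.18 CPM).

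Pooled over mice, subcortical neurons left in the excitatory class held few of its Lef1 and Tcf7l2 UMIs. Of 410 Lef1 UMIs in excitatory neurons, 8 (1.95%) were in the 24 nuclei that the neuron clustering put in the subcortical clusters 1 and 31. By mouse these were 4 of 14 in aged AAV-EGFP replicate 1, 3 of 9 in replicate 3 of that group and 1 of 69 in young AAV-EGFP replicate 2. Of 654 Tcf7l2 UMIs, 21 (3.21%) were in the 24 nuclei. Nuclei with any UMI of a subcortical gene, 12.05% of the class, held 12.7% of its Lef1 and 14.8% of its Tcf7l2 UMIs, shares close to their share of nuclei.

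Pooled over mice, most Lef1 UMIs of excitatory neurons lay in a few nuclei of 1 cortical-like cluster. Cluster 32 held 296 nuclei, 1.44% of the class, and 261 of the 410 Lef1 UMIs (63.7%). By mouse it held 88 of 112, 26 of 69 and 45 of 62 in the young AAV-EGFP, 7 of 14, 41 of 47 and 0 of 9 in the aged AAV-EGFP and 0 of 8, 52 of 64 and 2 of 25 in the aged AAV-B3GNT3 mice, so it held more than the rest of the class in 4 of 9 mice. It passed 3 of 4 upper-layer markers and was led by Angpt1, with Slc17a7 at 111 CPM and Slc17a6 at 9.55 CPM. It also passed 2 of the 11 subcortical markers. Ntng1, which is in that list, was at 2169 CPM in it, against 4206 CPM in cluster 31. Within it, 37 nuclei with at least 2 Lef1 UMIs held 255 of them (62.2% of the class), at a median of 6 and at most 15 per nucleus, while 253 of its nuclei had 0. Those 37 nuclei had Slc17a7 at 149 CPM and Slc17a6 at 9.09 CPM, and 9 subcortical markers (Shox2, Lhx9, Gbx2, Zic1, Zic4, Prkcd, Synpo2, Tnnt1 and Rgs16) at 0. Tcf7l2 was at 1.82 CPM in them, against 763 CPM in cluster 31.

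These nuclei also differed from their own cluster. They had Il1rapl2 at 4657 CPM against 125 CPM in the nuclei of the cluster with no Lef1 UMI, Cpa6 at 876 against 15.1 CPM, and Reln, a secreted protein of layer 1 and of entorhinal neurons among others, at 1156 against 65.5 CPM. Ntng1, a subcortical marker and among the leading genes of the cluster, was at 314 CPM in them against 2493 CPM in those others. The nuclei were chosen by their Lef1 UMIs, so this is a description and no type is named from it.

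The number of these nuclei differed between mice. The young AAV-EGFP mice had 11, 5 and 4 of these nuclei, with 87, 26 and 44 Lef1 UMIs. The aged AAV-EGFP mice had 2, 7 and 0, with 7, 39 and 0 UMIs. The aged AAV-B3GNT3 mice had 0, 8 and 0, with 0, 52 and 0 UMIs. The counts overlapped between the aged groups and the young group, and fewer such nuclei and less Lef1 RNA per nucleus cannot be told apart in the class sums.

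The fold change of Lef1 with ageing in excitatory neurons was also fitted with these sources left out. Clusters with at least 4 subcortical markers had already been set apart, so leaving out the subcortical clusters removed 24 of 20494 nuclei. That fit therefore cannot decide whether subcortical neurons were a source. The fold change was −1.91 ± 0.58 (log2, SE), −2.07 without the subcortical clusters, −2.11 without nuclei with a subcortical UMI and −1.96 without cluster 32, an alternative chosen after the data were seen. For Tcf7l2 the value was −1.78 ± 0.42, and −1.78, −1.83 and −1.78 in the same order. The level of Lef1 was 4.47, 2.28 and 2.37 CPM in the young AAV-EGFP mice, 0.603, 1.33 and 0.368 CPM in the aged AAV-EGFP mice, and 0.451, 2.92 and 0.911 CPM in the aged AAV-B3GNT3 mice. The young and aged AAV-EGFP values did not overlap, and the aged AAV-B3GNT3 values spanned both. Tcf7l2 was at 5.54, 4.56 and 3.18 CPM in the young, 2.46, 0.764 and 0.817 CPM in the aged AAV-EGFP and 2.14, 4.01 and 2.33 CPM in the aged AAV-B3GNT3 mice, with the same pattern. The 7 oligodendrocyte markers, a class with more Tcf7l2 per UMI, summed in excitatory neurons to 221 to 257 CPM in young, 120 to 197 CPM in aged AAV-EGFP and 197 to 238 CPM in aged AAV-B3GNT3 mice, all 7 seen in each group and with no overlap between young and aged AAV-EGFP mice. The 11 subcortical markers summed in the same class to 252 to 281 CPM in young and 135 to 339 CPM in aged AAV-EGFP mice. In aged AAV-B3GNT3 mice they summed to 167 to 307 CPM, so the 3 ranges overlapped. The part of either marker set in these differences was not tested.

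These neuronal levels were set beside the RNA that is free in the suspension. The background of a class was estimated from genes of other classes, as the percentage of the sample's profile over all barcodes that they reach in the class; that profile includes the nuclei themselves. The estimate for excitatory neurons was 9.85 to 20.9%. Inhibitory neurons had 10.8 to 28.1%, and oligodendrocytes 21.8 to 39.8%. Precursors had 18.7 to 37.1%, and endothelial cells the highest estimates, 32.7 to 55.6%. Tcf7l2 reached 1.95 to 5.01% of the all-barcode level in excitatory neurons and 2.16 to 8.50% in inhibitory neurons, below the estimate in 9 of 9 mice in both. Gad2, which excitatory neurons should lack, reached 3.69 to 8.54% there, and Slc17a7 reached 7.30 to 16.0% in inhibitory neurons. Lef1 exceeded the estimate in 1 of 9 mice in excitatory neurons, in 0 of 9 in inhibitory neurons, and in 0 of 9 in oligodendrocytes (10.3 to 24.6%). Tcf7l2 in both neuron classes and Lef1 in inhibitory neurons and oligodendrocytes were thus not shown to be above background. Gad2 in excitatory neurons also lay below the estimate, in every mouse. The estimate is therefore coarse, and a level summed over a class can hide a few nuclei with many UMIs. Whether these counts came from background RNA was not tested.

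The profile over all barcodes moved with ageing too. Tcf7l2 in it was at 113, 91.0 and 73.7 CPM in the young AAV-EGFP mice, 66.2, 39.1 and 41.8 CPM in the aged AAV-EGFP mice and 65.0, 84.0 and 48.5 CPM in the aged AAV-B3GNT3 mice. Lef1 was at 35.3, 22.7 and 20.7, at 14.9, 6.93 and 15.6, and at 16.7, 23.5 and 16.7 CPM. For both genes the young and aged AAV-EGFP values did not overlap. With the estimate subtracted, Lef1 and Tcf7l2 no longer had the counts to be fitted in excitatory neurons, where 7 of the 10 genes were.

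**Figure D3:**
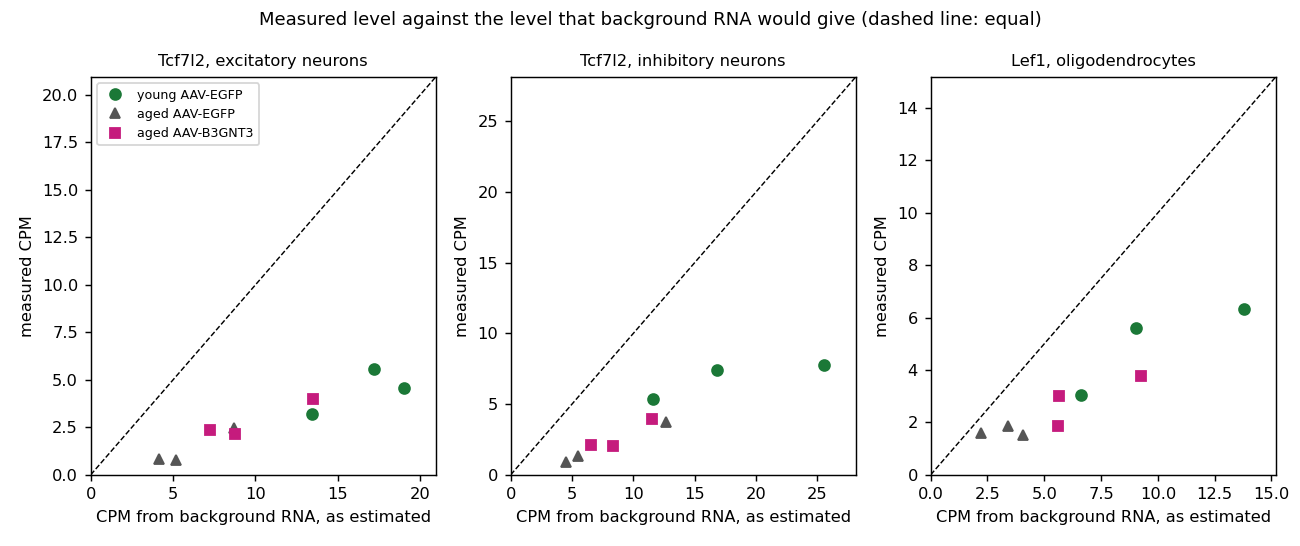
Measured level against the level that the background estimate would give, both in CPM, for Tcf7l2 in excitatory neurons, Tcf7l2 in inhibitory neurons and Lef1 in oligodendrocytes. Each point is 1 mouse, coloured and shaped by group, and the dashed line marks equal values. All 9 points lie below the line in each panel.

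In excitatory neurons as a whole, 3 of the 10 genes were past the threshold with ageing, 1 rising and 2 falling, where 14.0% of 16853 genes were (7.45% rising and 6.55% falling). Treatment put 1 past it, a rise, where 2.55% of genes were (0.943% rising and 1.6% falling). Among genes with at least 10 UMIs, 18.2% were higher and 11.2% lower in all aged AAV-EGFP than in all young mice, as were 1 and 2 of the 10, and 18.2% were higher and 6.71% lower in all aged AAV-B3GNT3 than in all aged AAV-EGFP mice, as were 2 and 0. Nothing is read from these counts, because values of these comparisons chose the members. The median log2 fold change of the 10 genes was −0.14 with ageing and 0.16 with treatment, beside 0.02 and 0.01 over all genes tested. The ageing median was −0.20 without aged AAV-EGFP replicate 3 and −0.21 without young AAV-EGFP replicate 1, and the treatment median was 0.30 without aged AAV-EGFP replicate 1 and 0.30 without replicate 3 of that group.

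Wnt5a is at chr14:28504750-28527448. In excitatory neurons it was at 4.39, 2.78 and 2.99 CPM in the young AAV-EGFP mice, 3.83, 3.51 and 5.11 CPM in the aged AAV-EGFP mice and 9.13, 8.34 and 8.67 CPM in the aged AAV-B3GNT3 mice. All 3 aged AAV-B3GNT3 values stood above the 6 others, and the fold change with treatment was 0.95 ± 0.18 (log2, SE). It ranged from 0.89 to 1.05 when each mouse was left out in turn, and was 0.99 with the background subtracted. The level was above the background estimate in 9 of 9 mice. Among neuron clusters, the treatment difference of Wnt5a was 1.76 ± 0.44 in the layer 5-like cluster 3, 1.11 ± 0.35 in cluster 6, 0.85 ± 0.28 in the upper-layer-like cluster 15 and 0.25 ± 0.44 in the layer 6-like cluster 17.

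Inhibitory neurons, from the same mice and libraries, did not choose the gene and could be tested. Wnt5a was at 8.27, 4.80 and 12.5 CPM in the young AAV-EGFP mice, 8.22, 6.34 and 8.86 CPM in the aged AAV-EGFP mice and 12.7, 12.3 and 11.6 CPM in the aged AAV-B3GNT3 mice. The 2 aged groups did not overlap, while the young values spanned them. The difference with treatment, 0.52 ± 0.26 on the log2 scale, did not pass the test (adjusted p = 0.308). Its level was highest in the Vip interneuron-like clusters 26 and 24, at 39.9 and 23.0 CPM, where treatment differences were 0.18 ± 0.36 and 0.04 ± 0.38.

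In endothelial cells Wnt5a was counted too rarely for the fit. It had 2, 1 and 2 UMIs in the young, 1, 1 and 1 in the aged AAV-EGFP and 6, 6 and 2 in the aged AAV-B3GNT3 mice. The last group stood higher, at 33.5, 21.9 and 11.4 CPM against 7.03, 5.13 and 4.10 CPM, on counts that are near the floor of a single UMI.

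The receptors Fzd3 (chr14:65192449-65262463, minus strand) and Lrp6 (chr6:134446476-134566965, minus strand) were fitted in both neuron classes. Differences of Fzd3 were −0.17 ± 0.13 and 0.15 ± 0.13 in excitatory and 0.00 ± 0.16 and −0.03 ± 0.16 in inhibitory neurons, for ageing and treatment in turn, and the groups overlapped in each. Its level ran from 58.5 to 67.4 CPM in young, 48.2 to 73.5 CPM in aged AAV-EGFP and 63.9 to 77.4 CPM in aged AAV-B3GNT3 excitatory neurons. Differences of Lrp6 were −0.10 ± 0.10 and 0.00 ± 0.10 in excitatory and 0.01 ± 0.11 and −0.10 ± 0.11 in inhibitory neurons, in the same order. Over the 25 clusters with at least 10 nuclei in every mouse in which it could be fitted, its ageing difference lay between −0.16 and 0.80, and the upper value came from cluster 25, a cluster of few UMIs led by mitochondrial genes; the next highest was 0.13, in cluster 24.

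Fzd6, at chr15:39006034-39038188, differed by group in excitatory neurons. It was at 0.838, 0.397 and 0.651 CPM in the young AAV-EGFP mice, 1.38, 3.11 and 7.07 CPM in the aged AAV-EGFP mice and 4.34, 2.10 and 3.75 CPM in the aged AAV-B3GNT3 mice. Young values stood below all 6 aged values, with a fold change of 2.56 ± 0.51 with ageing (1.92 to 2.93 with each mouse left out) and −0.28 ± 0.44 with treatment. With the background subtracted the ageing value was 9.14, against young values near 0, so that its size has no meaning. The 6 aged mice were above the background estimate and the 3 young mice were not. In the layer 6-like cluster 16 the ageing difference was 3.17 ± 0.63, and in cluster 6 it was 2.43 ± 0.65. Inhibitory neurons had 0.92 ± 0.46 (adjusted p = 0.240) and, of the clusters that could be fitted, the parvalbumin-like cluster 18 had 0.72 ± 0.46 (adjusted p = 0.412).

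**Figure D4:**
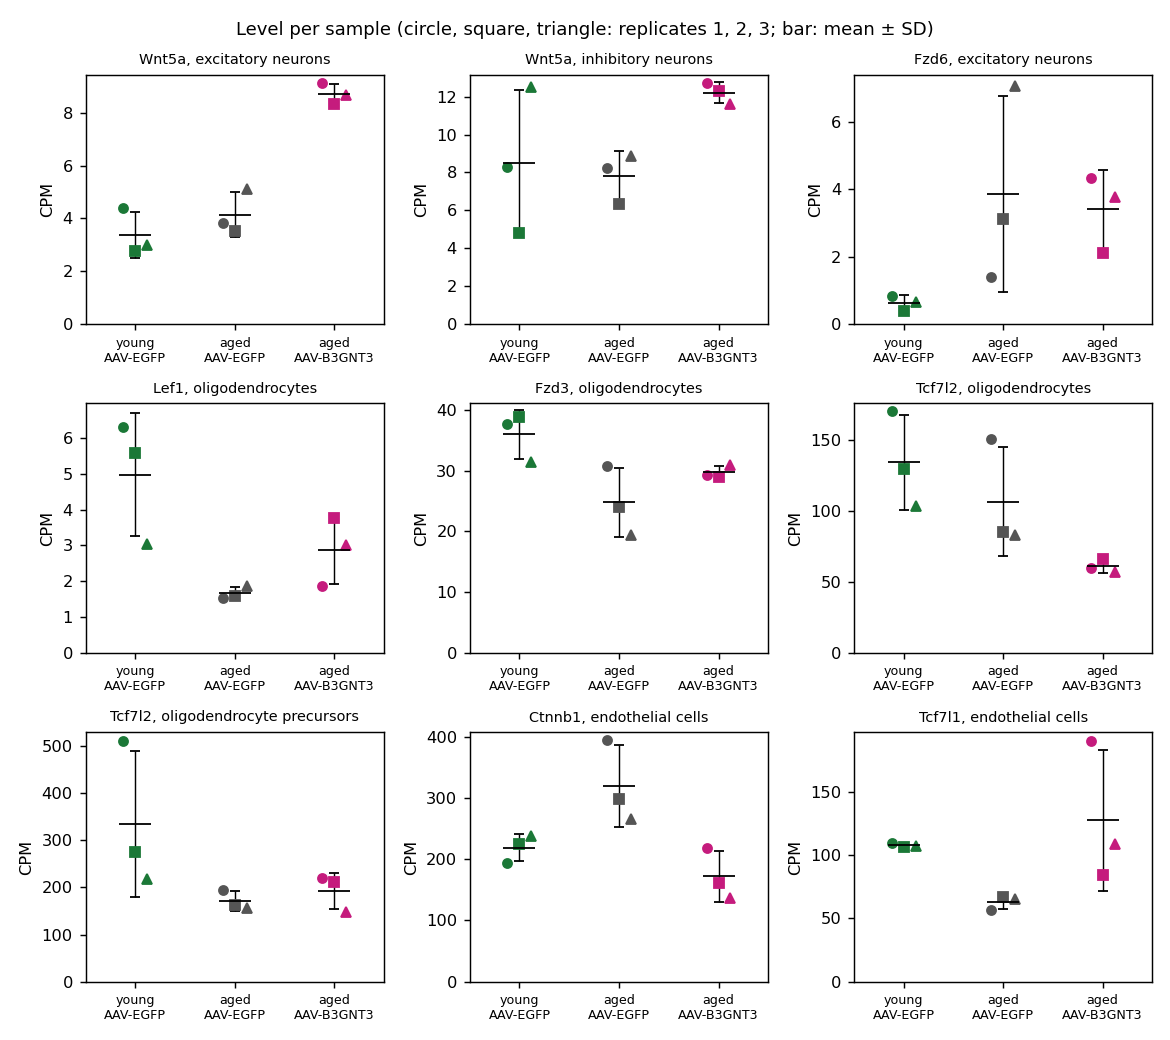
CPM of 7 of the genes in the class named above each panel, 1 point per mouse (circle, square and triangle for replicates 1, 2 and 3), with the mean and SD of each group of 3. Wnt5a in excitatory neurons stands between 8.34 and 9.13 CPM in the aged AAV-B3GNT3 mice, above all other mice, and Ctnnb1 in endothelial cells is highest in the aged AAV-EGFP mice.

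In inhibitory neurons 1 of 9 genes tested was past the threshold with ageing, where 3.04% of 14551 genes were (1.88% rising and 1.16% falling). It was Tcf7l2, at 7.44, 7.73 and 5.35 CPM in the young AAV-EGFP, 3.74, 1.30 and 0.904 CPM in the aged AAV-EGFP and 2.07, 3.97 and 2.13 CPM in the aged AAV-B3GNT3 mice. The groups of the ageing comparison did not overlap (−1.86 ± 0.43, adjusted p = 0.0421), but these values were below the background estimate, and the call was lost without any 1 of 6 libraries: aged AAV-EGFP replicates 2 and 3, aged AAV-B3GNT3 replicate 1 and each young mouse (highest adjusted p = 0.156). The astrocyte markers in the class, a class with much Tcf7l2, summed to 105 to 175 CPM in the young mice, 60.9 to 82.4 CPM in the aged AAV-EGFP mice and 84.9 to 159 CPM in the aged AAV-B3GNT3 mice, with all 6 markers seen in each group; their part in the result was not tested. With treatment 0 of 9 genes passed (0.0687% of all genes, 0.0206% rising and 0.0481% falling), and 0 did with DESeq2 (2.88% of all genes). Of the 9, 1 (Apcdd1) had an unadjusted p under 0.05 (0.98 ± 0.36, adjusted p = 0.191), where 2611 of 14551 genes did. Of the 10 genes, 2 (Lef1 and Tcf7l2) were lower in all aged AAV-EGFP than in all young mice and 0 were higher, beside 10.1% and 12.9% of genes. With treatment 2 (Wnt5a and Apcdd1) were higher in all treated mice and 0 lower, beside 18.5% and 6.02%.

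Tcf7l1, at chr6:72626378-72789254 on the minus strand, was highest among inhibitory neurons in the striatal-like clusters 11 and 14. The direct-pathway striatal-like cluster 0, which lay mostly in the mixed class, had it at 0.643 CPM. Clusters 11 and 14 passed 4 of 5 and 5 of 5 markers of indirect- and direct-pathway striatal neurons, with Tcf7l1 at 19.3 and 12.4 CPM against 1.65 CPM in excitatory neurons as a whole. The highest level of any neuron cluster, 33.1 CPM, was that of cluster 30, of 349 nuclei, mostly excitatory neurons with 5 of 5 deep intratelencephalic markers, where single mice ranged from 0 to 83.0 CPM. In cluster 11 it fell with ageing, by 1.75 ± 0.41 on the log2 scale (adjusted p = 0.0286, where 3.17% of 9755 genes were called). The adjustment covers the genes of this cluster and not the other clusters fitted, and the cluster was not refitted without single mice. Young AAV-EGFP replicate 3 had 56 nuclei in it. The level of Tcf7l1 there was 42.9 ± 21.4 CPM (SD, n = 3) in the young mice, 13.1 ± 5.4 CPM in the aged AAV-EGFP mice and 10.3 ± 5.8 CPM in the aged AAV-B3GNT3 mice. Over all barcodes it was at 41.1, 24.5 and 20.2, at 17.8, 13.5 and 13.9, and at 30.1, 37.8 and 14.2 CPM in the same order. In cluster 14 the difference was −0.56 ± 0.37 (adjusted p = 0.416), and in all inhibitory neurons it was −1.05 ± 0.39 (adjusted p = 0.132). The difference between the 2 clusters was not tested.

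In oligodendrocytes, where 20.7% of 13233 genes were called with ageing and 9.64% fell, 2 of the 10 genes were called and both fell. Lef1 was at 6.31, 5.59 and 3.03 CPM in the young, 1.53, 1.59 and 1.87 CPM in the aged AAV-EGFP and 1.87, 3.77 and 3.01 CPM in the aged AAV-B3GNT3 mice. Young values stood above the aged AAV-EGFP values (−1.58 ± 0.38, adjusted p = 0.0131), and the call held without each mouse in turn (highest adjusted p = 0.0488). These levels were below the background estimate in every mouse. The 7 endothelial markers, whose cells hold most Lef1 per UMI, summed to 12.4 to 21.6 CPM in this class in young, 13.4 to 15.6 CPM in aged AAV-EGFP and 13.3 to 19.9 CPM in aged AAV-B3GNT3 mice, and their part was not tested. Fzd3 was at 37.7, 38.9 and 31.4 CPM in the young, 30.9, 24.0 and 19.4 CPM in the aged AAV-EGFP and 29.3, 29.0 and 30.96 CPM in the aged AAV-B3GNT3 mice. It fell by 0.54 ± 0.18 (adjusted p = 0.0463), a call that was kept when aged AAV-EGFP replicate 1 was left out (0.00799) and lost when any other mouse was (0.0516 to 0.161). Fzd3 was at its highest in excitatory neurons, whose 6 markers summed in oligodendrocytes to 338 to 356 CPM in young, 143 to 275 CPM in aged AAV-EGFP and 260 to 327 CPM in aged AAV-B3GNT3 mice, all 6 seen in each group. Their part in the fall was not tested.

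Tcf7l2 in oligodendrocytes with treatment was known beforehand and is described with no test. It was at 170, 129 and 103 CPM in the young AAV-EGFP mice, 151, 85.3 and 83.1 CPM in the aged AAV-EGFP mice and 59.4, 65.7 and 57.1 CPM in the aged AAV-B3GNT3 mice. The aged AAV-B3GNT3 values stood below all 6 others, and all 9 values were above the background estimate. The fold change was −0.91 ± 0.22 (log2, SE), and −0.55 without aged AAV-EGFP replicate 1, the highest of its group. It was the 1 gene of the 10 past the threshold, where 7.72% of genes were (2.48% rising and 5.24% falling), and nothing is read from that count. Markers of newly forming oligodendrocytes, which hold most Tcf7l2 per UMI, summed in this class to 824 to 893 CPM in aged AAV-EGFP and 716 to 796 CPM in aged AAV-B3GNT3 mice, with 7 of 7 seen, and to 707 to 901 CPM in young mice; their part was not tested.

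The remaining values in oligodendrocytes did not pass. With ageing Tcf7l1 stood at −1.10 ± 0.40 (adjusted p = 0.0650), Apcdd1 at 1.37 ± 0.57 (0.103) and Tcf7l2 at −0.33 ± 0.22 (0.290). Without aged AAV-EGFP replicate 1, when 28.9% of all genes were called, these 3 passed, at −1.80 (0.00286), 1.81 (0.00395) and −0.68 (0.0116). Apcdd1 was at 1.28, 7.48 and 12.5 CPM in the aged AAV-EGFP mice against 2.10, 2.79 and 3.86 CPM in the young mice, so the groups overlapped through that mouse. Of genes with at least 10 UMIs in the class, 15.7% were lower in all aged AAV-EGFP than in all young mice, as were 3 of the 10 (Fzd3, Ctnnb1 and Lef1), and 17.5% were higher, as were 0. With treatment 3 (Fzd6, Ctnnb1 and Lef1) were higher and 1 (Tcf7l2) lower without overlap, beside 17.7% and 10.7% of genes.

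Oligodendrocyte precursors gave 0 of 7 genes called with either comparison (background 0.358% and 0.0754%). With ageing 4 of them had an unadjusted p under 0.05, where 1847 of 10607 genes did. DESeq2 called 1, Tcf7l2, where it called 1.33% of genes. With treatment both counts were 0, where 1283 of 10607 genes had such a p and DESeq2 called 0.74%. Tcf7l2 was at 511, 275 and 218 CPM in the young, 195, 163 and 155 CPM in the aged AAV-EGFP and 219, 211 and 148 CPM in the aged AAV-B3GNT3 mice. Young and aged AAV-EGFP values did not overlap (−0.96 ± 0.26, adjusted p = 0.0979). The precursor class includes the newly forming oligodendrocytes, of which there were 14, 18 and 8 nuclei among 232, 487 and 213 in the young and 5, 10 and 4 among 291, 414 and 288 in the aged AAV-EGFP mice. Without them, an alternative chosen after the data were seen, the difference of Tcf7l2 was −0.67 ± 0.18 (adjusted p = 0.0965), and without young AAV-EGFP replicate 1 it was −0.56 (0.204). Over all alternatives its adjusted p by edgeR or DESeq2 ranged from 5.68e-06, with no filter on low counts, to 0.314. Fzd6 was at 2.85, 0 and 3.54 CPM in the young against 7.03, 12.8 and 17.3 CPM in the aged AAV-EGFP mice (2.90 ± 0.81, adjusted p = 0.112), on 7 UMIs in the young group. Tcf7l1 stood at −0.85 ± 0.28 (0.143) and Axin2 at 0.68 ± 0.25 (0.181). With ageing 1 of the 10 (Fzd6) was higher and 3 (Tcf7l1, Tcf7l2 and Apcdd1) lower without overlap, beside 11.2% and 7.77% of genes, and with treatment 1 (Apcdd1) was higher and 0 lower, beside 9.45% and 6.89%. Without aged AAV-EGFP replicate 1, when 9.08% of all genes were called, Tcf7l2 (−1.07, adjusted p = 0.0211), Fzd6 (3.19, 0.0185), Tcf7l1 (−1.13, 0.0179) and Ctnnb1 (0.66, 0.0284) passed.

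Endothelial cells, the cells the viral promoter favours, had few nuclei and few calls. Of 5171 genes tested, 0.0193% were called with ageing and 0.135% with treatment, and 0 of 9 members were in either. DESeq2 also called 0. An unadjusted p under 0.05 was seen for 2 genes with ageing and 4 with treatment. These counts are not set beside all genes here, and nothing is read from them. In simulated counts of this depth, with 200 genes changed, 81.3% of 4-fold and 13% of 2-fold changes were recovered. Smaller changes were thus mostly not detectable at this depth. In the real fits 1 gene was called with ageing and 7 with treatment, which makes the adjusted threshold stricter than in the simulation. The simulated rates may therefore overstate recovery.

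Ctnnb1, at chr9:120929216-120960507, stood apart in 1 group of the endothelial values. It was at 194, 224 and 237 CPM in the young AAV-EGFP mice (53 to 64 UMIs), 394, 298 and 266 CPM in the aged AAV-EGFP mice (56 to 65 UMIs) and 218, 161 and 137 CPM in the aged AAV-B3GNT3 mice (24 to 44 UMIs). All 3 aged AAV-EGFP mice stood above the 6 others. The differences were 0.63 ± 0.26 with ageing (adjusted p = 0.363) and −1.003 ± 0.264 with treatment (adjusted p = 0.138), and neither passed.

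Several other endothelial genes had fold changes of the opposite sign with treatment, and none passed the test. Lrp6 was at 215, 205 and 152 CPM in the young, 190, 108 and 143 CPM in the aged AAV-EGFP and 268, 285 and 217 CPM in the aged AAV-B3GNT3 mice (0.71 ± 0.27 with treatment, adjusted p = 0.352). Tcf7l1 was at 109, 106 and 107, at 56.2, 66.7 and 65.6, and at 190, 84.0 and 108 CPM in the same order (0.85 ± 0.34, adjusted p = 0.393). Fzd3 stood at 1.099 ± 0.482 (adjusted p = 0.444), on levels above the background estimate in 7 of 9 mice. Of the 10 genes, 5 (Wnt5a, Fzd3, Lrp6, Tcf7l1 and Tcf7l2) were higher in all aged AAV-B3GNT3 than in all aged AAV-EGFP mice, where 8.00% of genes with at least 10 UMIs were, and 1 (Ctnnb1) was lower, where 5.08% were. With ageing 1 (Ctnnb1) was higher and 2 (Tcf7l1 and Tcf7l2) were lower, beside 6.61% and 6.63% of genes. The median fold change of the 9 genes tested was −0.31 with ageing and 0.30 with treatment, beside 0.01 and −0.02 over all genes. It was −0.50 and 0.78 without aged AAV-EGFP replicate 1. Without replicate 3 of that group it was −0.21 and 0.15, without aged AAV-B3GNT3 replicate 3 the treatment median was 0.50, and without aged AAV-EGFP replicate 2 the ageing median was −0.18. The treatment median was 0.54 with DESeq2, 0.58 over 10 genes with no filter on low counts and 0.19 over 8 genes with the background subtracted.

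Lef1 itself had wide spread in its main cell type. It was at 1236, 1188 and 1396 CPM in the young, 1666, 631 and 807 CPM in the aged AAV-EGFP and 1492, 1614 and 964 CPM in the aged AAV-B3GNT3 mice. The groups overlapped, and the differences were −0.24 ± 0.32 (adjusted p = 0.861) and 0.30 ± 0.32 (adjusted p = 0.795). The overlap came from aged AAV-EGFP replicate 1, and without it the other aged AAV-EGFP values lay below all others, with differences of −0.72 ± 0.26 (adjusted p = 0.138) and 0.78 ± 0.26 (adjusted p = 0.12). Without aged AAV-EGFP replicate 2 they were −0.02 and 0.08, and without replicate 3 of that group −0.09 and 0.15. The treatment difference was 0.14 without aged AAV-B3GNT3 replicate 2 and 0.50 without replicate 3 of that group, and none of these passed the test. Fzd6 stood at 0.03 ± 0.31 and 0.05 ± 0.31.

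Apcdd1 depended on a single mouse. In endothelial cells it was at 115, 118 and 157 CPM in the young AAV-EGFP mice (31 to 38 UMIs), 141, 5.13 and 28.7 CPM in the aged AAV-EGFP mice (20, 1 and 7 UMIs) and 117, 142 and 85.5 CPM in the aged AAV-B3GNT3 mice (15 to 39 UMIs). With all mice the differences were −1.24 ± 0.58 (adjusted p = 0.440) and 1.07 ± 0.59 (adjusted p = 0.568). Without aged AAV-EGFP replicate 1 they were −2.71 (adjusted p = 0.00644) and 2.54 (adjusted p = 0.0115), both past the threshold, as were 3.93% and 2.19% of all genes. In pericytes, where Apcdd1 was at 69.7 CPM over all mice, aged AAV-EGFP replicate 2 was also lowest of its group, with 0 UMIs. Replicates 1 and 3 had 96.8 and 78.7 CPM there, so replicate 3 was low in endothelial cells and not in pericytes. Summed pericyte markers in the endothelial class were 873 to 1351, 672 to 1476 and 829 to 1568 CPM in the 3 groups, with overlapping ranges.

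**Figure D5:**
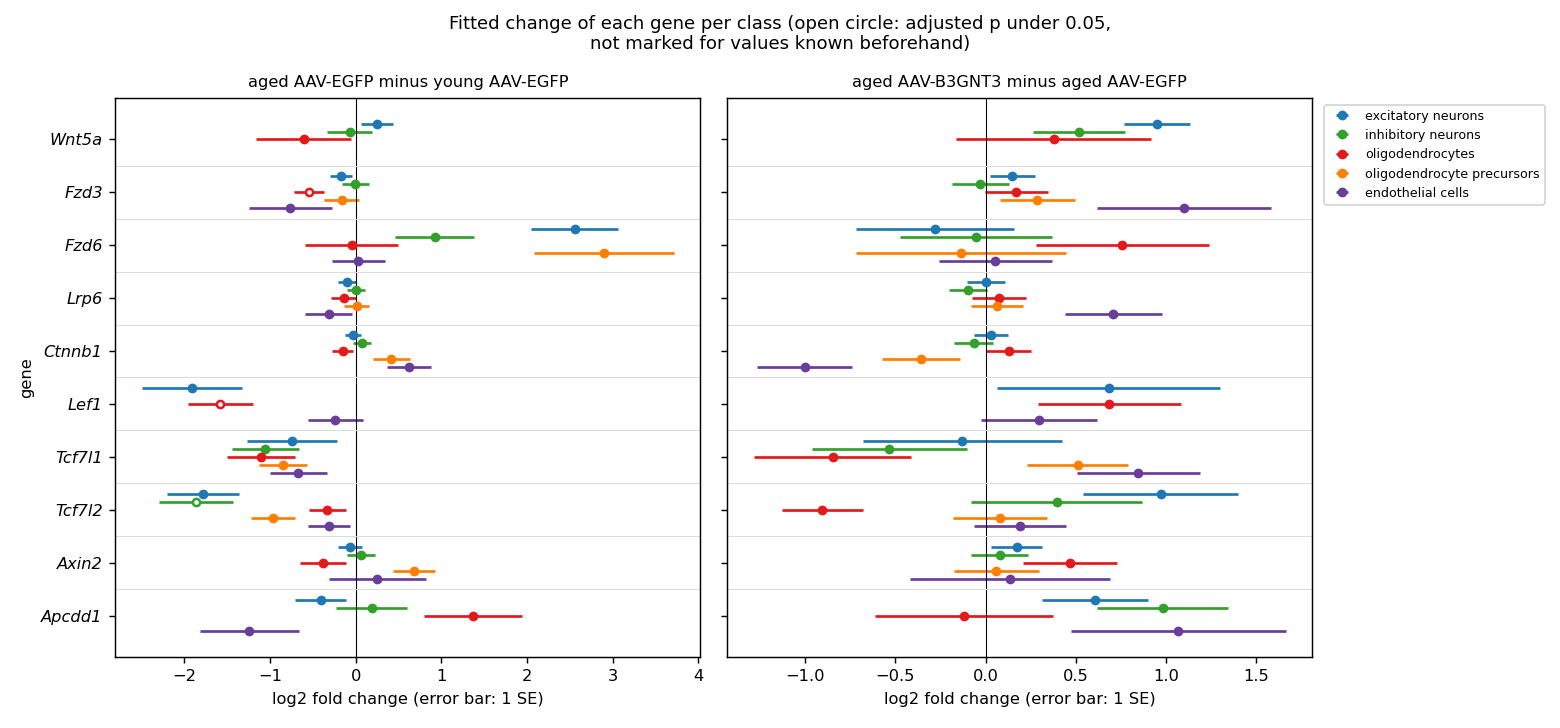
Log2 fold change of each gene (rows) with ageing (left) and treatment (right) in 5 classes, with bars of 1 SE; open circles mark an adjusted p under 0.05 and are not drawn for values known beforehand, those of excitatory neurons and of Tcf7l2 in oligodendrocytes with treatment (−0.91). Open circles stand for Tcf7l2 in inhibitory neurons (−1.86) and Lef1 and Fzd3 in oligodendrocytes (−1.58 and −0.54) on the left; genes with too few counts in a class have no point.

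A list of 101 other genes of the pathway was counted in the same fits. With ageing 10 of 82 tested were called in excitatory neurons (3 rose and 7 fell, where 14.0% of all genes were called), 3 of 68 in inhibitory neurons (3.04%), 9 of 61 in oligodendrocytes (5 rose and 4 fell, 20.7%), 0 of 59 in precursors and 0 of 37 in endothelial cells. With treatment, 3 of 82 were called in excitatory neurons (2.55% of all genes), 0 of 68 in inhibitory neurons (0.0687%), 2 of 61 in oligodendrocytes (7.72%), 0 of 59 in precursors (0.0754%) and 0 of 37 in endothelial cells (0.135%). In excitatory neurons the ligand gene Wnt1 rose with ageing by 2.31 ± 0.51 (log2, SE), and Dkk3, a relative of the Dickkopf inhibitors, fell by 0.60 ± 0.11 with ageing and rose by 0.48 ± 0.11 with treatment. The kinase Camk2g rose by 0.48 ± 0.13 and the co-repressor Tle3 fell by 0.66 ± 0.17 with ageing, while its relative Tle4 fell by 0.64 ± 0.12 and Bcl9l, a β-catenin co-activator, rose by 0.60 ± 0.14 with treatment. All of these ageing calls were lost without young AAV-EGFP replicate 3. The 2 rises with treatment, Dkk3 and Bcl9l, were no longer called with the 6 compared samples alone or with the background subtracted, nor without any 1 of 6 libraries (aged AAV-EGFP replicates 2 and 3, aged AAV-B3GNT3 replicates 1 and 2, young AAV-EGFP replicates 2 and 3). The fall of Tle4 was lost with the 6 compared samples alone and with the background subtracted. It was also lost when aged AAV-EGFP replicate 2, aged AAV-B3GNT3 replicate 1 or 2, or young AAV-EGFP replicate 3 was left out. In inhibitory neurons Wnt8b (2.02 ± 0.49, adjusted p = 0.0458) and the R-spondin Rspo1 (1.45 ± 0.31, 0.0331) rose with ageing, and the casein kinase Csnk1e fell by 0.68 ± 0.16 (0.0454). These 3 calls were lost with the 6 compared samples alone and without any 1 of 5 libraries (aged AAV-EGFP replicates 2 and 3, aged AAV-B3GNT3 replicate 1, young AAV-EGFP replicates 1 and 3). In oligodendrocytes the R-spondin Rspo2 fell by 1.57 ± 0.32 (0.00685), the Wnt5a receptor Ror1 fell by 1.62 ± 0.42 (0.0176) and the secreted inhibitor Sfrp4 rose by 1.44 ± 0.39 (0.0229) with ageing, as did Tle3 by 0.80 ± 0.26 (0.0462), while the co-repressor Ctbp2 fell by 1.17 ± 0.32 (0.0462) and the ligand gene Wnt5b by 0.61 ± 0.16 (0.0403) with treatment. Both falls with treatment were lost with the 6 compared samples alone, with the background subtracted, without young AAV-EGFP replicate 3 and without each of the 6 aged mice in turn. With the background subtracted, 1 rise and 2 falls of the list were called with ageing, where 7.42% of all genes were. Sfrp4 and Tle3 were thus not both kept. Without aged AAV-EGFP replicate 2 or 3 or young AAV-EGFP replicate 3, 2 rises were called.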

How the data were processed

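The authors deposited, for each of 9 libraries (10x Genomics 3' v3.1, nuclei sorted as Hoechst-positive singlets), a filtered matrix of UMI counts per gene and barcode, neither normalized nor corrected. The file headers name Cell Ranger 7.2.0 and the labels 4.0.0, with the mm10 (GRCm38) build. The study's own steps (SoupX, DoubletFinder, Seurat, DESeq2) are not in these counts.

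Barcodes with 200 to 5000 genes and at most 10% mitochondrial counts were kept, and the highest doublet scores were removed at 0.8% per 1000 barcodes. Nuclei were clustered with scanpy 1.11.5 (15 components, resolution 0.3, and 1.0 for likeness; neurons alone with 30 components, resolution 1.0) and named from marker lists. Neurons with at least 4 of 11 subcortical markers were set apart, and newly forming oligodendrocytes needed 5 of 7 markers; these limits, and the look at nuclei with at least 2 Lef1 UMIs, were chosen after seeing the data. Counts were summed per mouse and class and tested with edgeR 4.0.16 (quasi-likelihood, filterByExpr with a minimum count of 10, TMM, all 9 mice in 1 fit), with Benjamini-Hochberg adjustment over all genes and a threshold of 0.05. The 9 mice are separate animals. In counts simulated for the ageing comparison, 200 genes were changed: 92.8% of 4-fold and 61.6% of 2-fold changes were recovered in excitatory neurons (16853 genes). Alternatives were RLE scaling, no filter, DESeq2 1.42.0, a replicate block, the 6 compared samples alone, each mouse left out, subtracted background and other nucleus filters.

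All 10 members were named. From the 101 listed pathway genes, at most 2 rises and 2 falls of largest fold change past the threshold were named per class and comparison, and 5 genes for likeness to Lef1 and Tcf7l2. The members and lists were chosen with earlier results of these data known. Promoter sequences are from RefSeq (GRCm38.p6), which matched Lef1 and Tcf7l2 among others; gene positions are from the GRCm38 annotation.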

Additional observations from a re-analysis of the deposited data

Results flagged for a closer look

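Ctnnb1 had values of opposite sign in endothelial cells and oligodendrocytes, without overlap between the groups compared in either class, and none of its 4 differences passed the test. With ageing it was higher in all aged AAV-EGFP mice in endothelial cells (0.63 on the log2 scale) and lower in all of them in oligodendrocytes (−0.15), a difference of 0.778 that was not tested. With treatment it was higher in oligodendrocytes (0.13) and lower in endothelial cells (−1.003), a difference of 1.13 that was not tested. Tcf7l2 with treatment was higher in endothelial cells (0.19) and lower in oligodendrocytes (−0.91), a difference of 1.097 that was not tested. These comparisons share the aged AAV-EGFP mice.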

How the results depend on the processing

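Counts of members called changed with the processing by more than 1.5 times as follows. With ageing, the 3 calls in excitatory neurons became 1 with the background subtracted, where 7 of 10 genes were fitted and Lef1 and Tcf7l2 were not. Of all genes, 14.0% were called before and 13.5% after. Shares of all genes are given below for some of these settings and not for all. The 1 call in inhibitory neurons became 2 with no filter and 0 with the 6 compared samples alone, with the background subtracted or with the mixed class of neurons with subcortical markers added. After subtraction Tcf7l2 was not fitted there. The share of all genes was 3.04%, then 5.73% with no filter, 1.13% with the 6 samples and 0.824% with the background subtracted. The 2 calls in oligodendrocytes became 4 with no filter, 1 with the 6 samples alone, 1 with no doublet removal and 0 with the background subtracted, where 6 of 10 genes were fitted and Lef1 was not. The share of all genes was 20.7%, then 15% with no filter, 18.5% with the 6 samples and 7.42% with the background subtracted. The 0 in precursors became 3 with no filter, 1 with DESeq2 and 2 with no upper limit on genes. There the share was 0.358%, then 3.05% with no filter and 1.33% with DESeq2. With treatment, the 1 call in excitatory neurons became 0 with the background subtracted (Wnt5a fold change 0.99 against 0.95), where the share of all genes went from 2.55% to 0.445%. The 1 in oligodendrocytes became 2 with no filter and 0 with the background subtracted, where the share went from 7.72% to 8.73% and 0.905%. The pathway list had 22 calls with ageing, 45 with no filter, and 5 with treatment, which became 14 with no filter, 9 with DESeq2, 0 with the 6 samples alone and 0 with the background subtracted. Smaller shifts with ageing were 2 calls in excitatory neurons by DESeq2 (17.9% of all genes), with no upper limit on genes and with finer clustering. In oligodendrocytes there were 3 with DESeq2 (19.1% of all genes). The pathway list had 15 (background subtracted) to 32 (DESeq2) calls with ageing. The cause was not tested.

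With each mouse left out in turn, members called with ageing ranged from 0 to 3 in excitatory neurons (0 without young AAV-EGFP replicate 3), 0 to 1 in inhibitory neurons, 1 to 5 in oligodendrocytes, 0 to 4 in precursors and 0 to 1 in endothelial cells, the last 3 highest without aged AAV-EGFP replicate 1. The share of all genes called with ageing ran from 1.42 to 21.3% in excitatory and from 0 to 9.45% in inhibitory neurons. In oligodendrocytes it ran from 10.3 to 28.9%. Without aged AAV-EGFP replicate 1 it was 9.08% in precursors and 3.93% in endothelial cells. With treatment the members called ranged from 0 to 2 in excitatory neurons, 0 to 1 in oligodendrocytes and 0 to 1 in endothelial cells. The share of all genes with treatment ran from 0.0116 to 8.54% in excitatory neurons and from 0.438 to 12.5% in oligodendrocytes. Pathway calls with ageing ranged from 5 to 50, the lowest when young AAV-EGFP replicate 3 was left out and the highest when aged AAV-EGFP replicate 1 was, and with treatment from 0 to 7. In excitatory neurons the ageing fold change of Lef1 ranged from −2.71 to −1.55 and of Tcf7l2 from −2.52 to −1.50, and the treatment fold change of Tcf7l2 from 0.65 to 1.72. That of Lef1, 0.68, ranged from −0.32 to 1.48 and turned to −0.32 without aged AAV-B3GNT3 replicate 2.

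Replicate numbers did not pair the mice: over 45 pairs of the same number, correlations of deviations ran from −0.321 to 0.352 and 13 were over 0.1. With the replicate number as a block, ageing calls were 3 in excitatory neurons, 0 in inhibitory neurons (Tcf7l2 adjusted p = 0.0581 by edgeR) and 3 in oligodendrocytes, and pathway calls were 20 with ageing and 4 with treatment. Dkk3 and Bcl9l in excitatory neurons with treatment were no longer called. In inhibitory neurons with ageing Csnk1e was lost, and so was at least 1 of Wnt8b and Rspo1. Depth limits the endothelial values, which came from 764 nuclei.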
